A study of Mus musculus with 18 samples.

Results

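Transcripts of 35 genes that encode lysosomal hydrolases, their cofactors, proteins of the lysosomal membrane and the transcription factor TFEB were followed in 3 populations of mouse bone marrow progenitors. The genes were chosen by symbol from a fixed list of lysosomal genes that leaves the cathepsins out. The rule itself uses no measured value, but the list was chosen with earlier results of these data known. All 35 are present in the tables of all 3 populations, which together list 19919 genes. Each had a mean above the minimum of 0.5 FPKM (a read number divided by transcript length and library size) that a gene needed to be tested, and the lowest value of any of them in any library was 2.02 FPKM.

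The cells came from the bone marrow of C57BL/6 mice aged 6 to 8 weeks and were all FLT3+ and free of lineage markers. Multipotent progenitors (MPPs) also had CD34, CD117 and Sca-1, and common lymphoid progenitors (CLPs) had CD127, CD117 and Sca-1 and lacked CD11c. The CD115- common dendritic cell progenitors (CD115- CDPs) had intermediate CD117 and lacked CD11c, CD127 and CD115. WT mice were *Trim33* fl/fl and carried no Cre, and KO mice were *Trim33* fl/fl Cre-ERT2, with a tamoxifen-dependent Cre that is not restricted to blood cells. Tamoxifen was injected into mice of both genotypes, 2 mg daily over 5 days with 7 days of waiting after it, so the drug is common to the groups while the Cre protein is present only in KO mice. Each population had 3 WT and 3 KO libraries, described as biological repeats, 18 in all. Whether a repeat is 1 mouse or a pool of mice is not given in the sources used here, and p-values measure the spread between these libraries.

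A lysosome digests what a cell takes up or recycles. Its lumen is kept acidic by a proton pump, the V-ATPase, and holds hydrolases that each remove one kind of bond from glycolipids, glycoproteins, glycogen, glycosaminoglycans, lipids or peptides. Heavily glycosylated proteins such as LAMP1 and LAMP2 line the membrane, carriers such as NPC1 and cystinosin export the products, and loss of a single member causes a lysosomal storage disease in many cases. TFEB and its relatives bind E-box motifs in front of many of these genes. Dendritic cells use the same compartment to process antigen, and plasmacytoid dendritic cells use it to sense nucleic acids.

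The genotype labels were checked first through *Trim33* itself, from which Cre removes exons 2 to 4. In MPPs *Trim33* stood at 10.42, 10.12 and 8.78 FPKM in WT and at 9.71, 11.66 and 4.80 FPKM in KO libraries, so that the libraries labelled KO 1 and KO 2 did not lie below WT. The KO values were 9.64, 8.28 and 4.03 FPKM in CD115- CDPs, against 14.30, 15.23 and 8.27 FPKM in WT, and 7.52, 5.60 and 7.66 FPKM in CLPs, against 12.36, 7.01 and 8.86 FPKM. WT and KO values of *Trim33* overlapped in each population, and *Trim33* did not pass the test described below in any of them. With a block for the replicate number it passed as lower in CD115- CDPs only (limma adjusted p = 0.0258). A gene-level value still counts reads from the exons that are left, and KO below is the label of a library. Depth, estimated from the steps between low FPKM values, was 19.1 to 21.3 M mapped reads per library.

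The strongest pattern concerned 2 genes whose products travel to the lysosome together. *Grn* encodes progranulin, a secreted and lysosomal glycoprotein that is cut into granulins, and *Psap* encodes prosaposin, the precursor of the saposins that present sphingolipids to their hydrolases. In CLPs *Grn* averaged 227 ± 26.0 FPKM over WT and 28.0 ± 2.03 FPKM over KO libraries (SD, n = 3 each), and *Psap* averaged 1227 ± 116 and 324 ± 17.8 FPKM. Both passed the test described below as lower in KO CLPs, as did 7 other members with smaller falls, and no member passed as higher. By the sign of the log2 fold change alone, 30 members were lower in KO CLPs and 5 higher. The sequence before the start of these 2 genes, and of 2 members that carry the E-box CACGTG, is shown here because *Grn* and *Psap* had the most negative fold changes in CLPs and CD115- CDPs, and *Naglu* in MPPs. Each run is the 250 bases upstream of a RefSeq transcript start on GRCm38.p6, on the strand of the gene, and capitals mark CACGTG with a flanking base that makes TCACGTG, or GAGGAA, the core read by PU.1 and other ETS factors, on either strand.

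*Grn*, chr11:102430257-102430506, plus strand: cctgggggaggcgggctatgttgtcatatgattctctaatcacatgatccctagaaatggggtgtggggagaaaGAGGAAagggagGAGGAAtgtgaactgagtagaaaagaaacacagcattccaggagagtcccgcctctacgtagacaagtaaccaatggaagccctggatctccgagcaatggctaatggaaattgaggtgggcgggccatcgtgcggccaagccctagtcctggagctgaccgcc
*Psap*, chr10:60277378-60277627, plus strand, the more upstream of its 2 RefSeq starts: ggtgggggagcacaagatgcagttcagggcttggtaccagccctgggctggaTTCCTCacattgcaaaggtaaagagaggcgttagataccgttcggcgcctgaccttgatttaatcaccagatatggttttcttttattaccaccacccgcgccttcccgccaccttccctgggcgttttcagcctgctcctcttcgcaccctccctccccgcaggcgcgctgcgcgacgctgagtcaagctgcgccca
*Lamp1*, chr8:13158911-13159160, plus strand: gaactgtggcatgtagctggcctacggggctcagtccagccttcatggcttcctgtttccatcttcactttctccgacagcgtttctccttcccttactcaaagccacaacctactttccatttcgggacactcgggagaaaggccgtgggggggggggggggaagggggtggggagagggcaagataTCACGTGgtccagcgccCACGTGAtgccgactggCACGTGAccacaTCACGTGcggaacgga
*Naglu*, chr11:101069844-101070093, plus strand: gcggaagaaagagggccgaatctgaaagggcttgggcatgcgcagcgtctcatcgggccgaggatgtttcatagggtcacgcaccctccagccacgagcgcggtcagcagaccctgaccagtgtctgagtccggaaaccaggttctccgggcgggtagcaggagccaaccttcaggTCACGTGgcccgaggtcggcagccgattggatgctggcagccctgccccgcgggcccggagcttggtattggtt

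The *Grn* run holds GAGGAA at 2 positions and no CACGTG, the *Psap* run holds it once, on the opposite strand, and *Lamp1* holds CACGTG 4 times. Windows of 300 bases, from 250 before to 50 after a start, were found for 32 of the 35 members. CACGTG was present in 9 of these 32 genes (28.1%), which are *Arsa*, *Cln3*, *Gaa*, *Glb1*, *Lamp1*, *Lgmn*, *Mcoln1*, *Naglu* and *Sgsh*, against 8.09% of all 27025 genes with a window. All 9 also held the longer TCACGTG, which contains CACGTG and was present in 4.29% of all genes. GAGGAA was present in 14 of the 32 members (43.8%) and in 31.3% of all genes. The windows of *Tfeb* and *Psap* held no CACGTG at any of their starts. In CLPs the median log2 fold change was -0.23 for the 9 members with CACGTG and -0.23 for the 23 without it, of which 1 and 6 passed the test, or 3 and 8 with a block for the replicate number. Of all genes tested in CLPs 8.92% passed as lower, or 12.5% with the block. Whether the members with and without CACGTG differ in these counts was not tested. In MPPs the medians were -0.28 and -0.28, and the 2 most negative members, *Naglu* (-0.96) and *Sgsh* (-0.93), both hold CACGTG. In CD115- CDPs they were -0.29 and -0.30, and 0 and 5 passed with the block, against 5.56% of all genes. These matches describe letters in a window and not bound sites.

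KO and WT libraries were compared within each population by limma on log2(FPKM + 1), and a gene passed where p, adjusted by Benjamini-Hochberg over all genes tested, was 0.05 or less. On this scale the fold change of a gene with a low level is understated. In CLPs 9 of the 35 members (25.7%) passed as lower, against a background of 8.92% of the 12339 genes tested, and 0 passed as higher, where the background was 5.41%. At an unadjusted p under 0.05, 16 members were lower and 0 higher, against 16.2% and 13.4% of all genes. With a log2 fold change of at least 1 as well, the minimum the study used, 3 members were called (*Grn*, *Psap* and *Tfeb*), against 2.84% of all genes. The values of all KO CLP libraries lay below those of all WT libraries for 17 members (48.6%), while 18.6% of all genes had that order, and lay above them for 0 members, against 15.3% of all genes. The median log2 fold change of the members was -0.24 in CLPs, where the median of all genes was 0.01.

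**Figure D1:**
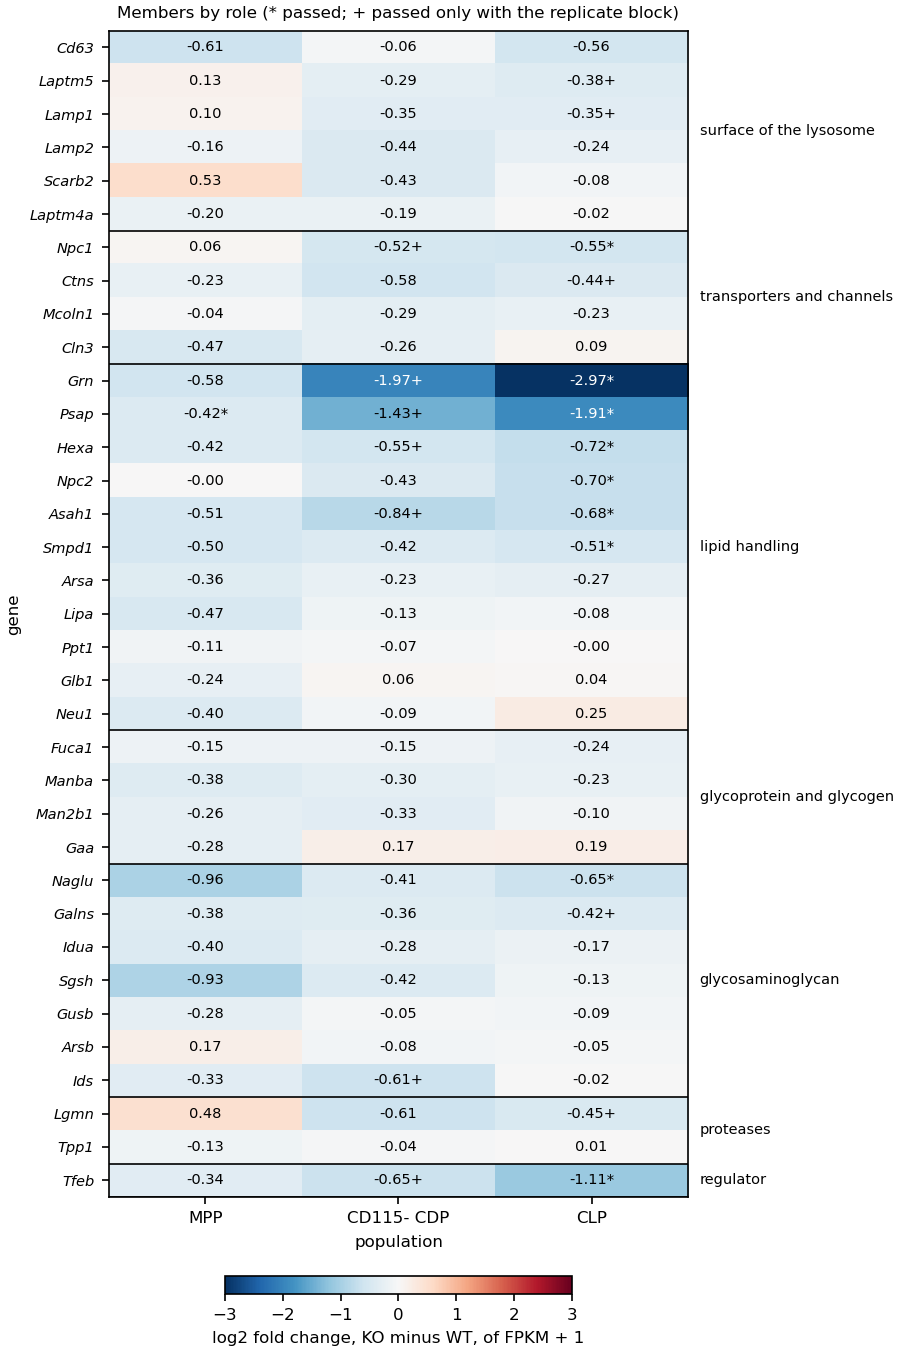
Log2 fold change (KO minus WT, on FPKM + 1) of the 35 members, in rows grouped by role, in the 3 populations in columns; an asterisk marks an adjusted p of at most 0.05 and a plus sign one reached only with a block for the replicate number. The darkest cells are *Grn* and *Psap* in CLPs (-2.97 and -1.91) and in CD115- CDPs (-1.97 and -1.43).

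In MPPs 1 member passed as lower, *Psap*, against a background of 3.52% of 12372 genes, and 0 passed as higher, against 0.315%. At an unadjusted p under 0.05, 15 members were lower and 2 higher, against 19.8% and 4.45% of all genes. No member reached the minimum fold change, which 1.32% of all genes did as lower. The KO values lay below all WT values for 20 members (57.1%) and above them for 3 (*Lamp1*, *Scarb2* and *Lgmn*), against 23.3% and 6.98% of all genes. The median was -0.28 for the members and -0.11 for all genes. After scaling by median ratios these medians were -0.17 and -0.01.

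The MPP counts turned on 1 library. Against the WT mean the median of the 35 members was -0.36 in KO 1, -0.38 in KO 2 and -0.08 in KO 3. Without KO 3, 24 members (68.6%) passed as lower and 2 as higher (*Scarb2* and *Lgmn*), but the background then was 38.8% lower and 15.5% higher. KO 3 is also the KO MPP library with the least *Trim33*, 4.80 FPKM.

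In CD115- CDPs 0 members passed in either direction by limma, where the background was 0.0654% lower, also with the minimum fold change, and 0.0409% higher. At an unadjusted p under 0.05, 7 members were lower and 0 higher, against 5.99% and 4.54% of all genes. Here the WT libraries differed widely: the median coefficient of variation of the members was 29.9% in WT CD115- CDPs, 3.93% in WT MPPs and 11.5% in WT CLPs. WT 3 had the highest WT value for 30 of the 35 members and KO 3 the highest KO value for 27, and same-numbered WT and KO libraries deviated together. With a block for the replicate number 7 members passed as lower (20.0%) and 0 as higher, against a background of 5.56% lower and 462 of 12229 genes higher. The median standard error of the members went from 0.260 to 0.118 with the block. The KO values lay below all WT values for 9 members, against 10.6% of all genes, and above them for 0, against 7.68%. The median was -0.33 for the members and -0.07 for all genes. Without WT 3 the members' median was -0.10.

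**Figure D2:**
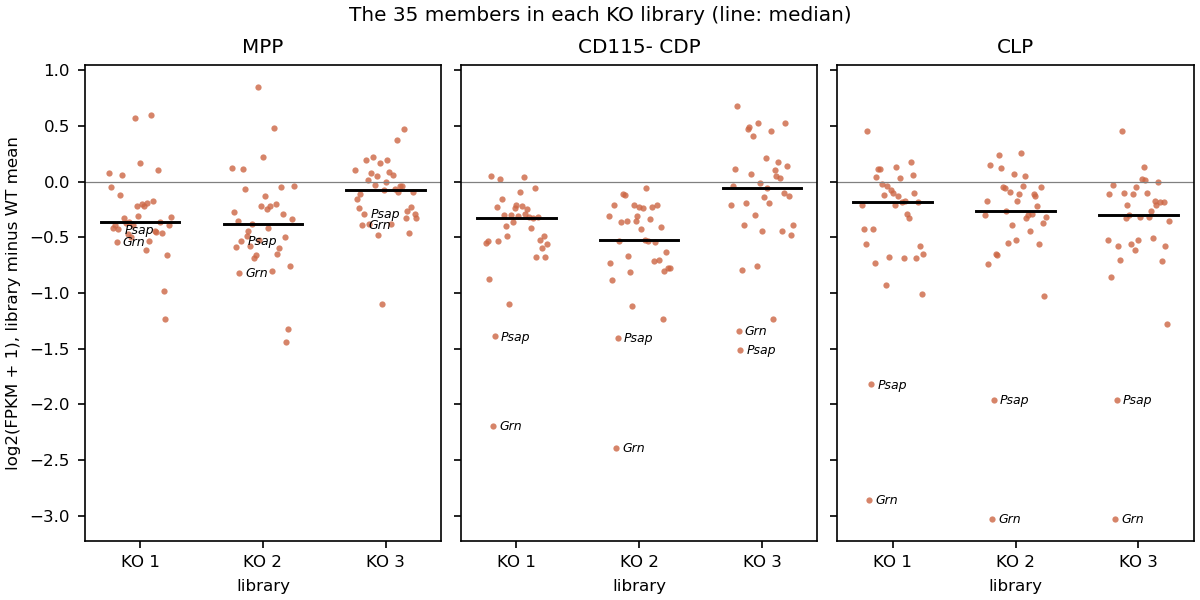
Each of the 35 members in each KO library, as log2(FPKM + 1) minus the mean of the 3 WT libraries of the same population; the line is the median. The median of KO 3 is nearest to 0 in MPPs (-0.08) and in CD115- CDPs (-0.06), whereas *Grn* and *Psap* lie below all other members in all 3 KO libraries of CD115- CDPs and CLPs.

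Progranulin and prosaposin are described first, in a group called lipid digestion here. The grouping was made for this description, and it includes progranulin, a glycoprotein that is cut into granulins. *Grn* (Entrez 14824) lies on chromosome 11 of GRCm38 from 102430507 to 102436809. In CLPs it stood at 249.05, 234.16 and 198.40 FPKM in WT and at 30.33, 26.89 and 26.74 FPKM in KO libraries. Every WT value was far above every KO value. *Grn* fell 8.12-fold between the means, with a log2 fold change of -2.97 (SE 0.114, limma adjusted p = 2.18e-06). In CD115- CDPs it stood at 135.61, 95.31 and 252.03 FPKM in WT and at 31.74, 27.50 and 58.09 FPKM in KO libraries. Replicate 3 was the highest of both genotypes, and the groups did not overlap. The log2 fold change of -1.97 (SE 0.420) did not pass without the block (limma adjusted p = 0.253) and passed with it (adjusted p = 0.000823), with pair differences of -2.06, -1.76 and -2.10. In MPPs *Grn* was 58.66, 56.98 and 54.46 FPKM in WT and 38.70, 31.66 and 42.89 FPKM in KO libraries. These groups did not overlap either, but the log2 fold change of -0.58 (SE 0.125) did not pass (limma adjusted p = 0.0566).

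*Psap* (Entrez 19156) lies on chromosome 10 from 60277628 to 60302600. It was among the most abundant transcripts of these cells, and its mean in WT CLPs ranked 58 of 18378 genes. Its WT CLP values were 1263.56, 1320.56 and 1097.80 FPKM, and its KO CLP values 344.85, 313.42 and 314.67 FPKM. *Psap* fell 3.78-fold there, with a log2 fold change of -1.91 (SE 0.118, limma adjusted p = 2.28e-05). In CD115- CDPs it had 689.74, 499.51 and 1255.61 FPKM in WT and 287.69, 286.15 and 265.63 FPKM in KO libraries. The WT libraries thus spread widely while the KO libraries lay close together. The log2 fold change was -1.43 (SE 0.318), with a limma adjusted p of 0.261 without and 0.0283 with the block. In MPPs the values were 323.22, 312.39 and 310.65 FPKM in WT and 233.80, 217.43 and 258.34 FPKM in KO libraries. That is a fall of 1.33-fold, with a log2 fold change of -0.42 (SE 0.0841, limma adjusted p = 0.0497), which passed in only 1 of the 6 fits that leave out a library, the one without KO 3.

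The effect of the KO label on these 2 genes differed between the populations. When the KO effect was compared across the populations by an F test of the interaction term in the 18 libraries, *Grn* (adjusted p = 0.0124) and *Psap* (adjusted p = 0.0358) passed, 2 of the 35 members against 2.45% of the 12421 genes tested. The log2 fold change of *Grn* was more negative in CLPs than in MPPs by 2.39 (SE 0.410) and that of *Psap* by 1.5 (SE 0.308). Between CLPs and CD115- CDPs the differences were -1.0 (SE 0.410) and -0.48 (SE 0.308). Because the tables of the populations were made separately, differences in level between populations cannot be told apart from differences between tables.

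**Figure D3:**
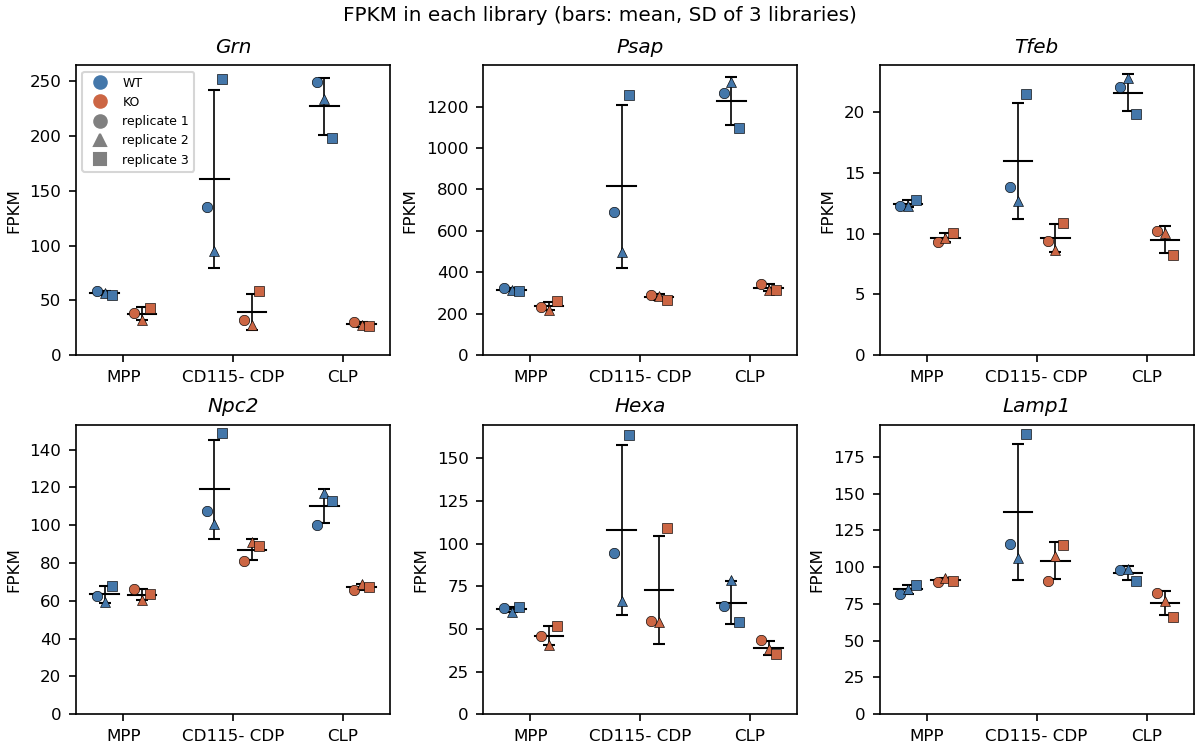
FPKM of *Grn*, *Psap*, *Tfeb*, *Npc2*, *Hexa* and *Lamp1* in every library, with a symbol for each replicate number and bars for the mean and SD of 3 libraries. The KO means of the 3 populations run from 28.0 to 39.1 FPKM for *Grn* and from 9.51 to 9.65 FPKM for *Tfeb*, and all WT libraries of CD115- CDPs and CLPs stand above the KO libraries for *Grn*, *Psap*, *Tfeb* and *Npc2*.

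Other proteins of lipid digestion fell less. *Npc2*, the small lumenal protein that hands cholesterol to NPC1, was 99.89, 117.21 and 112.72 FPKM in WT CLPs and 65.66, 68.95 and 67.10 FPKM in KO CLPs. The KO libraries were close together and well below WT, with a log2 fold change of -0.70 (SE 0.0967, limma adjusted p = 0.00209). In MPPs *Npc2* had the same mean in both groups, 63.3 FPKM. In CD115- CDPs the KO libraries, 81.01 to 91.27 FPKM, lay below the WT libraries, 100.38 to 148.77 FPKM, without passing in either fit (limma adjusted p = 0.469 and, with the block, 0.0846).

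*Hexa*, the alpha subunit of beta-hexosaminidase, whose loss causes Tay-Sachs disease, had 63.39, 78.71 and 53.94 FPKM in WT CLPs and 43.48, 38.30 and 35.10 FPKM in KO CLPs. It fell by 0.72 on the log2 scale (SE 0.149, limma adjusted p = 0.0143). In CD115- CDPs *Hexa* had 94.28, 66.36 and 163.45 FPKM in WT and 54.52, 54.19 and 109.14 FPKM in KO libraries. The groups overlapped there, and *Hexa* passed with the block (limma adjusted p = 0.0410) and not without it (0.694). In MPPs *Hexa* was lower in all KO libraries (40.52 to 51.90 against 59.95 to 62.65 FPKM) without passing (limma adjusted p = 0.0888).

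*Asah1*, acid ceramidase, had 30.49, 25.15 and 23.69 FPKM in WT CLPs and 13.36, 17.65 and 17.57 FPKM in KO CLPs, and fell by 0.68 on the log2 scale (SE 0.143, limma adjusted p = 0.0161). In CD115- CDPs it had 25.42, 19.97 and 55.46 FPKM in WT and 13.71, 13.47 and 24.60 FPKM in KO libraries, with a log2 fold change of -0.84 that passed with the block (limma adjusted p = 0.0248, and 0.536 without it). Its KO MPP libraries, 14.78 to 18 FPKM, all lay below the WT libraries, 23.41 to 24.19 FPKM, with a limma adjusted p of 0.0559. *Smpd1*, acid sphingomyelinase, had 13.92, 15.53 and 13.59 FPKM in WT CLPs and 9.28, 10.82 and 9.26 FPKM in KO CLPs, and fell by 0.51 on the log2 scale (SE 0.112, limma adjusted p = 0.0188). Of the 6 fits that leave out a CLP library, *Asah1* passed in 5 and *Smpd1* in 3. In CD115- CDPs the groups of *Smpd1* overlapped, without passing in either fit (limma adjusted p = 0.661 and, with the block, 0.0914). In MPPs *Smpd1* was 7.60, 7 and 11.78 FPKM in KO libraries against 12.36 to 12.74 FPKM in WT, with KO 3 apart from the other two.

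The other 5 genes of lipid digestion did not pass in any population, with or without the block. They are *Lipa* (lysosomal acid lipase), *Ppt1* (palmitoyl-protein thioesterase), *Arsa* (arylsulfatase A), *Glb1* (beta-galactosidase) and *Neu1* (sialidase). In CLPs their log2 fold changes ran from -0.27 for *Arsa* to 0.25 for *Neu1*. Of the 11 genes of this role, *Grn* among them, 6 passed as lower in CLPs, against 8.92% of all genes. The median log2 fold change of the role was -0.51 there. In MPPs the median of the role was -0.42 and in CD115- CDPs -0.42.

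*Tfeb* (Entrez 21425, chromosome 17 from 47737037 to 47792416), the transcription factor among the members, had all KO values below all WT values in each population. In CLPs it had 22.11, 22.80 and 19.87 FPKM in WT and 10.18, 10.08 and 8.26 FPKM in KO libraries. It fell 2.27-fold, with a log2 fold change of -1.11 (SE 0.117, limma adjusted p = 0.000525). In CD115- CDPs *Tfeb* had 13.86, 12.68 and 21.49 FPKM in WT and 9.35, 8.67 and 10.90 FPKM in KO libraries. The groups did not overlap, and the log2 fold change of -0.65 (SE 0.232) passed with the block (limma adjusted p = 0.0354) and not without it (0.423). In MPPs WT libraries had 12.31, 12.29 and 12.77 FPKM and KO libraries 9.27, 9.65 and 10.02 FPKM, with a log2 fold change of -0.34 (SE 0.102) and a limma adjusted p of 0.120. The interaction of *Tfeb* did not pass (adjusted p = 0.169, and 0.0269 with the block).

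Fewer of the membrane proteins passed. None of the 6 structural or trafficking proteins of the membrane passed in CLPs without the block. *Lamp1*, the most used marker of lysosomes, had 98.13, 98.98 and 90.29 FPKM in WT CLPs and 82.35, 77.31 and 66.36 FPKM in KO CLPs, a log2 fold change of -0.35 (SE 0.108) with a limma adjusted p of 0.0682 without and 0.0360 with the block. In MPPs the order was the opposite, with 81.75, 85.10 and 87.63 FPKM in WT and 89.85, 92.50 and 90.76 FPKM in KO libraries, a log2 fold change of 0.10 (limma adjusted p = 0.391). In CD115- CDPs it had 115.98, 106.13 and 190.81 FPKM in WT and 90.54, 107.43 and 114.97 FPKM in KO libraries, and the groups overlapped.

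*Lamp2*, which LAMP1 resembles and which also serves chaperone-mediated autophagy, did not pass in any fit with or without the block. Its values were 46.24, 34.56 and 37.13 FPKM in WT CLPs and 28.72, 34.61 and 36.03 FPKM in KO CLPs. In CD115- CDPs they were 38.18, 30.43 and 64.33 FPKM in WT and 28.91, 24.95 and 40.90 FPKM in KO libraries, and in MPPs 45.28, 42.81 and 44.04 against 42.62, 36.26 and 39.44 FPKM. The groups overlapped in CD115- CDPs and CLPs. *Laptm5*, a lysosomal membrane protein of blood cells and the member with the highest level in WT MPPs, had 609.49, 491.27 and 393.65 FPKM in WT CLPs and 455.84, 342.31 and 342.56 FPKM in KO CLPs. These overlapped, but each KO library was below the WT library of its number, and the log2 fold change of -0.38 passed only with the block (limma adjusted p = 0.0434, and 0.209 without it).

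*Cd63*, *Scarb2* and *Laptm4a* did not pass in any population. *Scarb2*, the receptor that carries glucocerebrosidase to the lysosome, was higher in all KO MPP libraries (17.91, 21.97 and 13.37 FPKM) than in WT (11.60, 13.03 and 10.79 FPKM), but in CD115- CDPs it was lower in all of them, 12.20 to 18.35 against 18.90 to 27.14 FPKM. Its interaction had an adjusted p of 0.155, and of 0.0236 with the block. *Cd63*, a tetraspanin, had 67.09, 54.33 and 36.01 FPKM in KO MPPs against 74.82 to 81.00 FPKM in WT, and 4.63 to 5.89 FPKM in KO CLPs against 6.00 to 11.64 FPKM.

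Among the 4 transporters and channels *Npc1* passed in CLPs. It moves cholesterol out of the lysosome, and had 48.12, 38.73 and 33.09 FPKM in WT CLPs and 29.04, 24.76 and 26.18 FPKM in KO CLPs. It fell by 0.55 on the log2 scale (SE 0.143, limma adjusted p = 0.0355), but passed in only 2 of the 6 fits that leave out a library. In CD115- CDPs *Npc1* had 26.44, 22.51 and 17.30 FPKM in WT and 18.37, 14.76 and 12.13 FPKM in KO libraries, with pair differences of -0.50, -0.58 and -0.48. It passed there with the block (limma adjusted p = 0.0330) and not without it (0.485). In MPPs the groups overlapped, at 14.54 to 16.82 FPKM in WT and 14.45 to 18.17 FPKM in KO libraries.

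*Ctns*, the cystine exporter, was the member with the lowest WT mean in each population. It had 4.12, 5.01 and 4.30 FPKM in WT CLPs and 2.48, 3.39 and 3.29 FPKM in KO CLPs, and passed only with the block (limma adjusted p = 0.0356, and 0.0712 without it). In CD115- CDPs the KO libraries, 2.11 to 3.08 FPKM, lay below the WT libraries, 3.60 to 6.08 FPKM, and in MPPs the groups overlapped. *Mcoln1*, the calcium channel mucolipin, and *Cln3*, a membrane protein lost in juvenile neuronal ceroid lipofuscinosis, did not pass in any population. Their log2 fold changes ran from -0.29 to -0.04 and from -0.47 to 0.09.

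The enzymes that take glycosaminoglycans apart were represented by 7 genes, of which *Naglu* passed in CLPs. *Naglu*, alpha-N-acetylglucosaminidase, acts on heparan sulfate, and had 8.66, 9.77 and 8.28 FPKM in WT CLPs and 5.11, 5.71 and 5.05 FPKM in KO CLPs. It fell by 0.65 on the log2 scale (SE 0.115, limma adjusted p = 0.00717). In MPPs *Naglu* had 11.15, 10.31 and 10.68 FPKM in WT and 4.95, 3.31 and 7.52 FPKM in KO libraries, the most negative log2 fold change of any member there (-0.96, SE 0.244), without passing (limma adjusted p = 0.0865). In CD115- CDPs the spread between replicates was larger than the difference, with 6.49, 3.32 and 14.44 FPKM in WT and 4.53, 2.39 and 10.46 FPKM in KO libraries.

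*Sgsh*, the sulfamidase of the same pathway, had 10.04, 9.30 and 9.94 FPKM in WT MPPs and 3.58, 3.30 and 8.18 FPKM in KO MPPs. KO 1 and KO 2 were thus far below WT and KO 3 near it, and the log2 fold change of -0.93 (SE 0.292) did not pass (limma adjusted p = 0.129, and 0.000723 without KO 3). In CLPs it was -0.13. *Galns*, which removes sulfate from keratan sulfate, had 13.34, 15.98 and 11.65 FPKM in WT CLPs and 10.91, 9.69 and 9.20 FPKM in KO CLPs, and passed only with the block (limma adjusted p = 0.0418, and 0.0775 without it). *Ids*, iduronate 2-sulfatase, passed only in CD115- CDPs and only with the block (limma adjusted p = 0.0470), at 4.77, 4.56 and 7.58 FPKM in WT and 3.06, 3.01 and 3.78 FPKM in KO libraries. *Gusb*, *Arsb* and *Idua* did not pass in any population, with log2 fold changes between -0.40 and 0.17.

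The 4 enzymes of glycoprotein and glycogen breakdown, *Gaa* (acid alpha-glucosidase), *Man2b1* and *Manba* (mannosidases) and *Fuca1* (fucosidase), did not pass in any population in either fit. Their log2 fold changes were between -0.38 and 0.19, and *Gaa* was the one of them whose mean was higher in KO than in WT, in CD115- CDPs (26.3 against 22.6 FPKM) and in CLPs (24.6 against 21.3 FPKM).

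Of the 2 proteases, *Lgmn* (legumain, an asparaginyl endopeptidase that activates cathepsins) had 28.57, 36.31 and 31.97 FPKM in WT CLPs and 19.57, 25.30 and 25.49 FPKM in KO CLPs. The groups did not overlap, and it passed with the block (limma adjusted p = 0.0158) and not without it (0.0641). In CD115- CDPs it had 32.24, 28.51 and 32.64 FPKM in WT and 25.98, 24.26 and 12.70 FPKM in KO libraries. In MPPs the order was the opposite, with 7, 6.43 and 6.06 FPKM in WT and 10.35, 9.44 and 8.68 FPKM in KO libraries, a log2 fold change of 0.48 (limma adjusted p = 0.0860). Its interaction had an adjusted p of 0.0913, and of 0.0365 with the block. *Tpp1*, tripeptidyl peptidase, had log2 fold changes of -0.13, -0.04 and 0.01 in MPPs, CD115- CDPs and CLPs and passed in none of them.

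**Figure D4:**
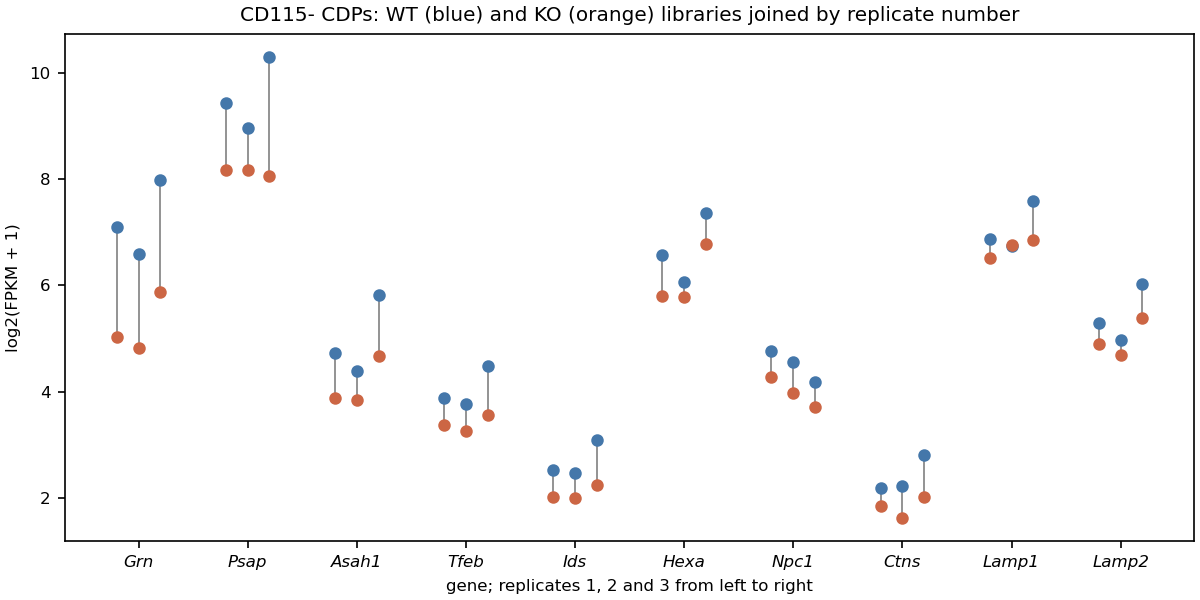
Log2(FPKM + 1) of 10 members in CD115- CDPs, with the WT and KO libraries of the same replicate number joined by a line. WT 3 is the highest WT library for 9 of the 10, and the line of *Lamp1* in replicate 2 has almost no length (106.13 and 107.43 FPKM).

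With the block 14 members passed as lower in CLPs (40.0%) and 0 as higher, against a background of 12.5% lower and 1041 of 12339 genes higher. They are the 9 named above with *Lamp1*, *Laptm5*, *Ctns*, *Galns* and *Lgmn*. Leaving out each CLP library in turn left 6 to 11 members lower, and 674 to 1316 of the 12302 to 12368 genes tested. *Grn*, *Psap*, *Tfeb*, *Npc2* and *Naglu* passed in all 6 of these fits.

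The levels of WT libraries are given side by side as a description, since each population has its own table. The 3 WT libraries of CLPs lay above those of MPPs for 13 members, below them for 9 and overlapped for 13, where, of the 12518 genes that averaged 0.5 FPKM or more, 24.3% lay above, 31.6% below and 44.2% overlapped. Mean levels in WT CLPs and MPPs were 227 and 56.7 FPKM for *Grn* (4.01-fold), 1227 and 315 FPKM for *Psap* (3.89-fold), 32.3 and 6.50 FPKM for *Lgmn* (4.97-fold), and 40.0 and 15.8 FPKM for *Npc1* (2.52-fold). *Cd63* had the opposite order, 78.4 FPKM in WT MPPs, 16.8 FPKM in WT CD115- CDPs and 8.34 FPKM in WT CLPs, without overlap between any of them. WT CLPs lay above WT CD115- CDPs for 3 members, below them for 3 and overlapped for 29, against 19.9%, 8.38% and 71.7% of all genes. In KO libraries the 3 CLP values lay above those of KO MPPs for 5 members, below them for 8 and overlapped for 22, against 19.4%, 16.6% and 64.0% of all genes. Mean *Grn* was 37.8, 39.1 and 28.0 FPKM in KO MPPs, CD115- CDPs and CLPs, and mean *Psap* 237, 280 and 324 FPKM.

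**Figure D5:**
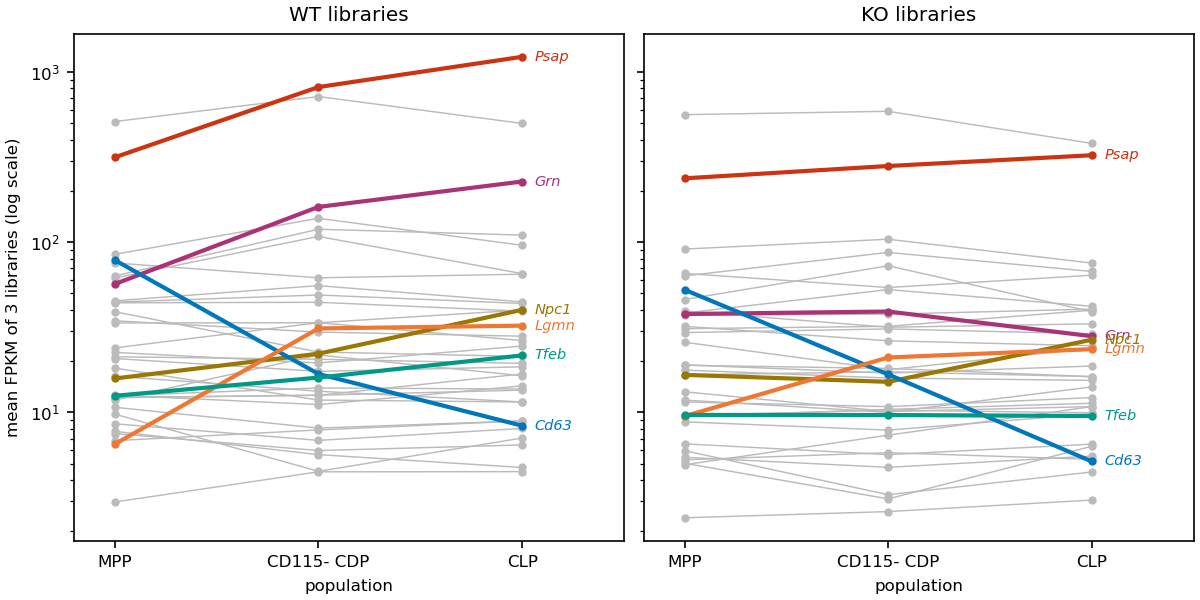
Mean FPKM of the 35 members (log axis) in the 3 populations, in WT libraries on the left and KO libraries on the right; *Psap*, *Grn*, *Npc1*, *Lgmn*, *Tfeb* and *Cd63* are named and the others are grey. From WT MPPs to WT CLPs *Psap* goes from 315 to 1227 FPKM and *Grn* from 56.7 to 227 FPKM, and in KO libraries from 237 to 324 FPKM and from 37.8 to 28.0 FPKM.

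Lysosomal genes outside the 35 were read from lists of the same compartment. Beside the counts that follow, 8.92% of all genes tested passed as lower and 5.41% as higher in CLPs. These shares were 3.52% and 0.315% in MPPs, and 0.0654% and 0.0409% in CD115- CDPs. With the block 12.5% of all genes passed as lower in CLPs and 5.56% in CD115- CDPs. Of 20 other hydrolases and activators tested, 8 passed as lower and 0 as higher in CLPs. *Ifi30*, the thiol reductase of antigen processing, went from 60.7 ± 15.6 to 5.42 ± 0.651 FPKM (SD, n = 3) there, and *Scpep1*, a serine carboxypeptidase, from 84.9 ± 8.26 to 23.0 ± 2.43 FPKM. In MPPs 2 of the 20 passed as lower and in CD115- CDPs 0, or 4 with the block.

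Of 19 other proteins of the lysosomal membrane, 6 passed as lower in CLPs, among them *Cd68* (40.9 ± 8.21 to 10.9 ± 1.49 FPKM, SD, n = 3), the macrosialin of macrophages and dendritic cells. *Laptm4b*, a relative of the member *Laptm4a*, rose in CLPs from 9.21 ± 0.308 to 21.2 ± 0.286 FPKM, and in MPPs from 18.6 ± 1.80 to 34.3 ± 4.50 FPKM. Its relative *Laptm4a* was 64.8 and 63.9 FPKM in WT and KO CLPs. In CD115- CDPs 0 of the 19 passed, or 7 as lower and 1 as higher with the block. Of 17 V-ATPase subunits 5 passed as lower in CLPs, led by *Tcirg1* with 161 ± 33.1 and 81.6 ± 9.65 FPKM (SD, n = 3), 0 in MPPs, and 0 in CD115- CDPs, or 2 with the block.

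None of 9 genes that sort hydrolases by mannose 6-phosphate passed in any population, in either fit. Among 19 relatives of TFEB and components of mTORC1 signalling at the lysosome, *Tfec* passed as lower in MPPs (5.96 to 2.44 FPKM) and *Lamtor1* in CLPs (53.0 to 39.5 FPKM). Of 20 autophagy genes *Uvrag* and *Gabarap* passed as lower in CLPs and 0 in the other populations. Counts as small as these lie near the shares of all genes given above.

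Genes that mark other cells also differed between KO and WT libraries, though not every list in every population, and in bulk RNA fewer cells of a type and less RNA per cell cannot be told apart. The shares of all genes given above for the lysosomal lists stand beside the counts of markers as well. In CLPs the summed level of 11 dendritic cell markers was 841 to 879 FPKM in WT and 197 to 265 FPKM in KO libraries, with 5 of 8 tested lower and 1 higher. *Siglech*, a surface lectin of plasmacytoid dendritic cells and their precursors, was 144.64 to 215.96 FPKM in WT and 7.67 to 9.24 FPKM in KO CLPs. *Itgax*, which encodes the CD11c that the CLP gate leaves out, was 54.80 to 69.66 FPKM in WT CLPs and 5.36 to 7.47 FPKM in KO CLPs. The 13 markers of monocytes and macrophages summed to 238 to 307 FPKM and 64.0 to 104 FPKM, with 3 of 7 lower. Neutrophil markers had 0 of 11 passing in CLPs, or 8 lower with the block, and their sums, 426 to 1001 in WT and 241 to 416 FPKM in KO, did not overlap.

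In CD115- CDPs the monocyte and macrophage markers summed to 184 to 1849 FPKM in WT and 111 to 290 FPKM in KO libraries, with 0 of 10 passing, or 5 lower with the block. WT 3, the library with the highest *Grn* and *Psap*, had 709.22 FPKM of *Ly6c2* where WT 1 and WT 2 had 109.65 and 63.46 FPKM. It also had 136.77 FPKM of *Csf1r*, the gene of the CD115 that the gate leaves out, against 57.03 and 39.11 FPKM. Of 10 dendritic cell markers 1 passed as lower there, or 4 with the block, with a median log2 fold change of -1.21. The neutrophil and B cell markers of CD115- CDPs had medians of 0.26 and 0.31, none of them passed in either fit, and the neutrophil sums overlapped, at 696 to 4545 FPKM in WT and 800 to 4455 FPKM in KO libraries. In MPPs 2 of 8 dendritic cell markers were lower, and 8 of 11 tested monocyte and macrophage markers, 4 of 11 neutrophil markers, 8 of 9 erythroid markers and 5 of 6 basophil and mast cell markers passed as lower. The erythroid markers summed to 379 to 404 FPKM in WT and 33.0 to 60.0 FPKM in KO MPPs, and to 35.5 to 57.5 and 5.94 to 10.1 FPKM in CLPs, where 4 of 6 passed as lower. No marker of these lists was at 0 in all libraries of a population. Of 7 B cell markers *Igll1* was lower in MPPs and *Ebf1* higher in CLPs. Of the 7 genes of the sorting gates, 3 passed as lower in MPPs and 1 in CD115- CDPs, with 0 higher in either. In CLPs 2 of the 7 passed as lower and 2 as higher. Among these genes *Kit* was lower in KO MPPs (72.7 to 38.2 FPKM) and higher in KO CLPs (12.9 to 20.0 FPKM). The part of these markers in the results for the lysosomal genes was not tested.

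RefSeq places another protein-coding gene over part of the locus of 9 members, among them *Hexa*, *Npc1*, *Asah1* and *Galns*. Whether reads were assigned by strand is not given in the sources used here, so the values of these members may include reads of the neighbouring gene.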

How the data were processed

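Reads (single-end, 50 bases) were filtered by the authors with SOAPnuke 1.5.2, aligned with Bowtie2 2.2.5 and turned into gene values with RSEM 1.2.12, and HISAT2 2.0.4 is named for genome alignment to mm10. The tables deposited hold FPKM for each gene in each library, and read counts were not used here. Genes whose mean over a population's 6 libraries reached 0.5 FPKM were tested on log2(FPKM + 1) with limma 3.58.1 in R 4.3.3 (lmFit, eBayes with a trend). The fit was checked on simulated data with independent noise in each library, so the check does not cover deviations that libraries share. The study's own tests take counts and were not repeated. Same-numbered WT and KO libraries deviated together in CD115- CDPs (correlations of 0.437 to 0.790) and CLPs (0.131 to 0.400), by the replicate numbers of the labels, but so did some pairs with different numbers (-0.784 to 0.664 and -0.400 to 0.234). Per-library values are given for members that passed in a fit with or without the block (up to 14, by adjusted p), and for *Lamp1*, *Lamp2* and *Tfeb*, and up to 3 genes are named per other list. Per-library values of *Ids*, *Sgsh*, *Scarb2* and *Cd63* fall outside this rule and were chosen after their values were seen. Members and lists were chosen with earlier results of these data known. Depth came from steps of FPKM multiplied by transcript length in GENCODE vM21. Tables were made with pandas 2.3.3 in Python 3.11.15.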

Additional observations from a re-analysis of the deposited data

Results flagged for a closer look

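The effect of the KO label on *Grn* differed between MPPs, CD115- CDPs and CLPs in the F test of the interaction term (limma, adjusted p = 0.0124), with log2 fold changes of -0.58, -1.97 and -2.97, and KO libraries below all WT libraries in each population. For *Psap* the same test gave an adjusted p of 0.0358, with log2 fold changes of -0.42, -1.43 and -1.91. In all 3 KO libraries of every population both genes lay below the WT mean.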

How the results depend on the processing

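The count of lower members in CLPs, 9, stayed between 8 and 10 with another pseudocount, filter, scaling or variance prior, was 14 with the replicate block and 3 with a log2 fold change of at least 1. The lone lower member of MPPs gave way to 0 with a pseudocount of 0.1, a filter at a mean of 5 FPKM, median ratio scaling, eBayes without a trend, the replicate block or the minimum fold change, and to 3 after rescaling to TPM. Leaving out an MPP library gave 0 to 24 lower and 0 to 2 higher members, the upper values without KO 3. In MPPs the deviations of same-numbered libraries correlated at 0.0382 to 0.482, and those of pairs with different numbers at -0.492 to 0.262. What a shared number stands for is not given in the sources used here. The block took the calls of all genes in MPPs from 436 to 264 lower. The block gave 7 lower members in CD115- CDPs, against 0 in all other alternatives there. The members with an interaction numbered 4 with median ratio scaling, 5 with quantile normalization and 6 with the block. Of the 12421 genes tested, 409, 392 and 1077 had an interaction in these settings, against 304 in the main fit. The members' median kept its sign under every alternative in all 3 populations, with leave-one-out ranges of -0.37 to -0.23 in MPPs, -0.49 to -0.10 in CD115- CDPs and -0.29 to -0.21 in CLPs. Among the 15 members followed through every alternative, the sign changed for *Npc2* in MPPs (0.12 with median ratio scaling, and -0.05 to 0.05 without a library), *Npc1* in MPPs (-0.01 without KO 3 to 0.15 without KO 1), *Ctns* in MPPs (0.03 with quantile normalization) and *Naglu* in CD115- CDPs (-0.87 without KO 3 to 0.07 without WT 3). Over all 35 members, leaving out 1 library changed the sign of 3 in MPPs, 10 in CD115- CDPs (7 of them without WT 3: *Gusb*, *Tpp1*, *Lipa*, *Fuca1*, *Arsa*, *Arsb* and *Naglu*) and 9 in CLPs. The cause of these changes was not tested. *Grn*, *Psap* and *Tfeb* passed in CLPs under all 14 alternatives. Precision is limited by 3 libraries per group, and the CD115- CDP libraries spread widely. A single read over 2000 transcript bases adds 0.0246 FPKM, and the part of depth in the spread between libraries was not tested.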
